A study of Rattus norvegicus with 8 samples.

Results

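The 35 genes described here were chosen as leukocyte genes and read in the Achilles tendon: 24 are pan-leukocyte or macrophage genes, 6 are lymphocyte genes, 2 are mast cell genes and 3 are neutrophil genes. They were picked by gene symbol from the 32883 genes of the expression table and each symbol matched 1 gene. The tendons were the right Achilles tendons of 8 wild-type SD rats, males aged between 8 and 10 weeks by the study's methods. In the 12 h p.r. group, 4 rats ran for 1 h on a treadmill and were killed after 12 h of rest, and in the NC group 4 rats stayed in their cages and were killed at the same time. Polyadenylated RNA of the whole tissue was sequenced, 1 library per rat, with no sorting of cells. Between 7350509 and 12951397 reads per rat were assigned to genes. Levels are given as CPM (reads of the gene in every 1000000 reads of a library scaled by TMM) and, where genes are compared with one another, as FPKM, which also divides by gene length.

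Macrophages are resident phagocytes of most connective tissues, the tendon and its sheath included. They depend on the receptor Csf1r and on the transcription factor PU.1, the product of *Spi1*, and tissue-resident cells are known for scavenger and mannose receptors (Cd163 and Mrc1), for the complement protein C1q and for lysozyme. Mast cells store proteases in granules and lie along vessels, while neutrophils and lymphocytes mostly enter a tissue from blood.

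PU.1 binds purine-rich sites such as GAGGAA, and the promoters of the genes were searched for these letters. The window ran from 250 bases before to 50 bases after the start of each gene in the RefSeq promoter table (GRCr8), both strands were read, and 26 of the 35 genes had an entry. The letters were present in 17 of the 26 windows (65.4%), against 27.6% of 33469 windows of the same length. They were present in 13 of 18 windows of the pan-leukocyte and macrophage genes (72.2%) in 1 of 4 of the lymphocyte genes (25.0%), in 2 of 2 of the neutrophil genes and in 1 of 2 of the mast cell genes. A match describes the sequence and is not a bound site. Only these letters were searched, so a window without them may still hold another purine-rich site. Whether the matches bear on the levels of the genes, or on their spread between rats, was not tested. The promoters of *C1qb* and *Mrc1* each held 2 matches, shown in capitals (TTCCTC is the same motif on the other strand), while the *C1qa* window, from the neighbouring gene of the same complement complex, held none. The windows lie at chr5:154407778-154408077 on the minus strand (*C1qb*), chr17:82157475-82157774 on the plus strand (*Mrc1*) and chr5:154419884-154420183 on the minus strand (*C1qa*), and each is written 5′ to 3′.
C1qb: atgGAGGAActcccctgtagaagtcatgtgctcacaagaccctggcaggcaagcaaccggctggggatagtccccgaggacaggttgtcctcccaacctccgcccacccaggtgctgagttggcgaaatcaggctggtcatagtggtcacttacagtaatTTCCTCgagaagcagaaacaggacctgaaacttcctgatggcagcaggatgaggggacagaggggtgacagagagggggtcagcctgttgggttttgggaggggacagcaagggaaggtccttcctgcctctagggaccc
Mrc1: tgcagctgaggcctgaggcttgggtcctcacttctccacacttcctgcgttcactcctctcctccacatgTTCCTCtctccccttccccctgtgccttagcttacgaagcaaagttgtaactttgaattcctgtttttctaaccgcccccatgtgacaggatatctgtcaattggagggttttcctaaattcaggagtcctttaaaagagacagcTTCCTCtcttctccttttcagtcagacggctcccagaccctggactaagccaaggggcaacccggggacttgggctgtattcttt
C1qa: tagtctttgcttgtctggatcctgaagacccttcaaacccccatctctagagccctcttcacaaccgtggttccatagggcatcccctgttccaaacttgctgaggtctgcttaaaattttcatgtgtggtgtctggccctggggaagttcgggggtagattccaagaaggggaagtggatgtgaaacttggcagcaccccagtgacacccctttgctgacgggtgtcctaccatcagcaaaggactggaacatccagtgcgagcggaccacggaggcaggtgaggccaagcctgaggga

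Macrophage genes were the most abundant of the 35 in these tendons, and genes of lymphocytes and neutrophils were scarce, other than *Cd4*, which macrophages of the rat also carry, at 20.6 ± 8.97 FPKM in the NC rats. Per length, *Lyz2*, which encodes the lysozyme of myeloid cells, had the highest level at 1598 ± 990 FPKM in the NC rats (mean ± SD, n = 4). It was followed by *Cd74*, the invariant chain of class II antigen presentation, at 293 ± 90.0 FPKM and by *Cd48*, a surface glycoprotein of leukocytes, at 258 ± 51.6 FPKM. The 3 chains of C1q had 178 ± 76.4 (*C1qa*), 164 ± 71.9 (*C1qc*) and 120 ± 55.5 FPKM (*C1qb*), and the SDs of these neighbours in the order overlapped. In all, 8 of the 35 genes had a mean of at least 100 FPKM in the NC rats, 20 had at least 10 FPKM and 28 had at least 1 FPKM. The integrin chain *Itgam* was the lowest of the tested macrophage genes at 1.80 ± 0.678 FPKM, and *S100a9* led the neutrophil genes at 2.91 ± 0.573 FPKM. The scavenger receptor gene *Marco* had 0 reads in every rat, and since 3 reads would have been 0.227 to 0.395 CPM, its level lay under that limit (counting error only). Of the lymphocyte genes, *Cd3e*, *Cd3d*, *Cd79b* and *Nkg7* had 25, 12, 23 and 34 reads over the 8 rats together, and the neutrophil gene *S100a8* had 48 reads. These 6 genes had too few reads for the test, and 29 genes were tested.

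**Figure D1:**
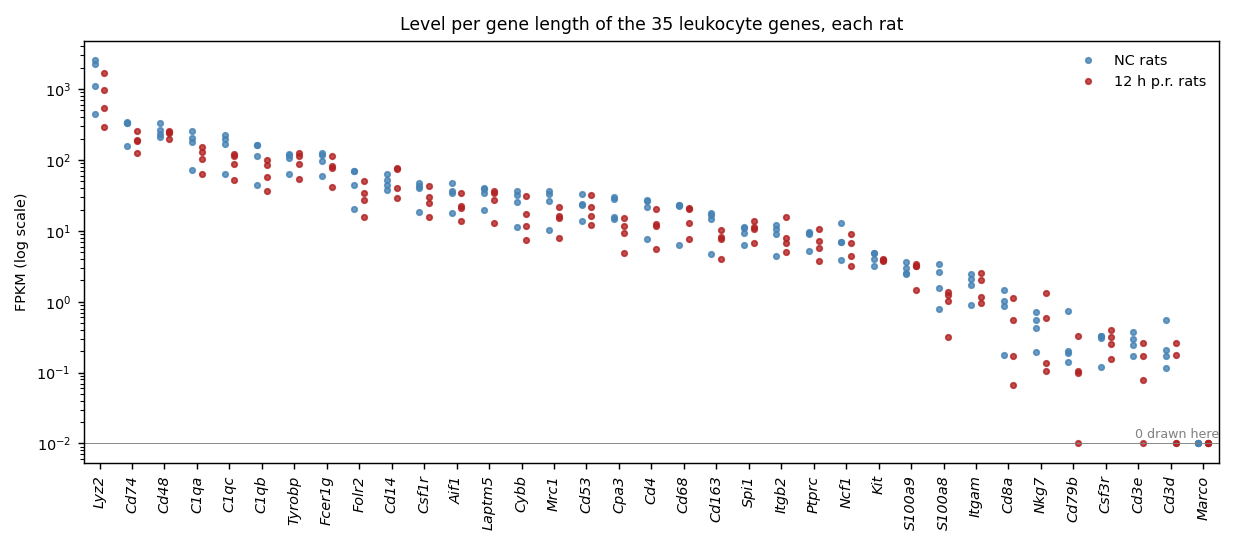
Level per gene length (FPKM, log axis) of the 35 leukocyte genes in each of the 4 NC rats (blue) and 4 12 h p.r. rats (red), ordered by the NC mean, with values of 0 drawn at the grey line. The genes run from *Lyz2*, at 1598 FPKM in the NC mean, to *Marco*, at 0 in every rat.

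No tested leukocyte gene differed between the groups after adjustment. All 13937 genes with enough reads were compared by the quasi-likelihood test of edgeR, and p-values were adjusted over them by the Benjamini-Hochberg method. On this test 0 of the 29 were higher and 0 were lower at 12 h p.r. (adjusted p under 0.05), where the background was 1 gene of the table (0.00718%). DESeq2's Wald test, the study's own tool, also called 0 of them, against 0.694% of the genes it tested. At an unadjusted p under 0.05, 0 genes were higher (5.44% of all genes) and 1 was lower (4.08% of all genes), the mast cell protease gene *Cpa3*. In 0 of the 29 did every 12 h p.r. rat lie above every NC rat (3.52% of all genes), and in 0 did every one lie below (2.55%). The fold changes leaned to lower values: 26 of the 29 were below 0 and 3 were above, where 6380 of all 13937 genes tested were below 0. The median log2 fold change was -0.39, where the median of all genes tested was 0.02. Many of the 29 genes shared their spread between rats, as described below, so the 26 are not separate observations. In RNA of whole tissue, fewer leukocytes and less RNA of these genes per leukocyte cannot be told apart.

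**Figure D2:**
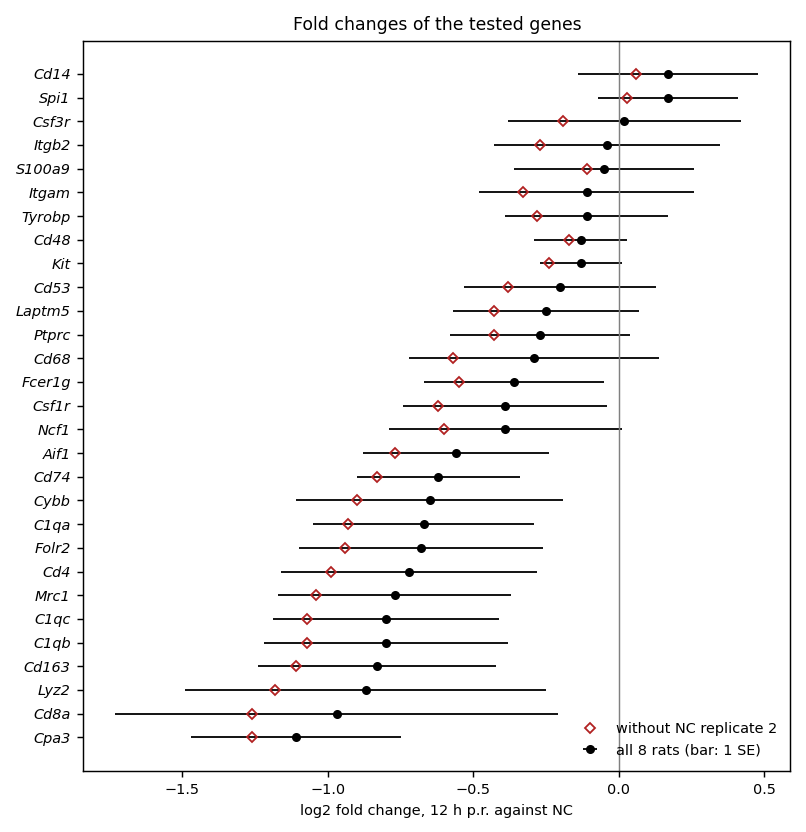
Log2 fold change of the 29 tested genes at 12 h p.r. against NC, with all 8 rats (black points, bars of 1 SE) and without NC replicate 2 (open red diamonds). The points run from -1.11 for *Cpa3* to 0.17 for *Cd14* and *Spi1*, and leaving out the 1 rat moves every diamond to the left of its point. Leaving out 12 h p.r. replicate 3 instead, which is not drawn, changed the median from -0.39 to -0.19.

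The spread between rats was wide, and it was shared by the genes. Over the 8 rats, and so with the difference between the groups included, the highest had 3.4 times the level of the lowest in the median tested leukocyte gene, where the median over 13895 genes was 1.67 times. Within a group this ratio was 2.72 at 12 h p.r. and 2.77 in NC for the median leukocyte gene, against 1.45 and 1.38 for the median of all genes tested with reads in each of the 4 rats. Among the 23 tested pan-leukocyte and macrophage genes, 12 h p.r. replicate 3 was the lowest of its group in 22, and NC replicate 2 was the lowest of its group in 22. The highest running rat was replicate 2 in 19 of them, and the highest NC rat was replicate 1 in 14, replicate 4 in 5 and replicate 3 in 4. The mean log2 CPM of the 23 genes was 5.84, 6.46, 5.09 and 6.01 in 12 h p.r. replicates 1 to 4 and 6.67, 5.35, 6.39 and 6.60 in NC replicates 1 to 4. Thus 3 NC rats had similar means, 1 NC rat lay near the lowest running rat, and the groups overlapped. Summed over the 24 genes, the CPM values were 2308, 4210, 1445 and 3017 at 12 h p.r. and 5632, 1825, 3675 and 5748 in NC. The mean of the first group was 0.65 times that of the second, 0.535 times without 12 h p.r. replicate 2, 0.547 times without NC replicate 2 and 0.753 times without 12 h p.r. replicate 3. *Lyz2* alone made up 1043 of the mean sum of 2745 CPM at 12 h p.r. and 1906 of 4220 CPM in NC. The ratio of the sums thus rests largely on that gene and is not a measure of each of the 24.

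**Figure D3:**
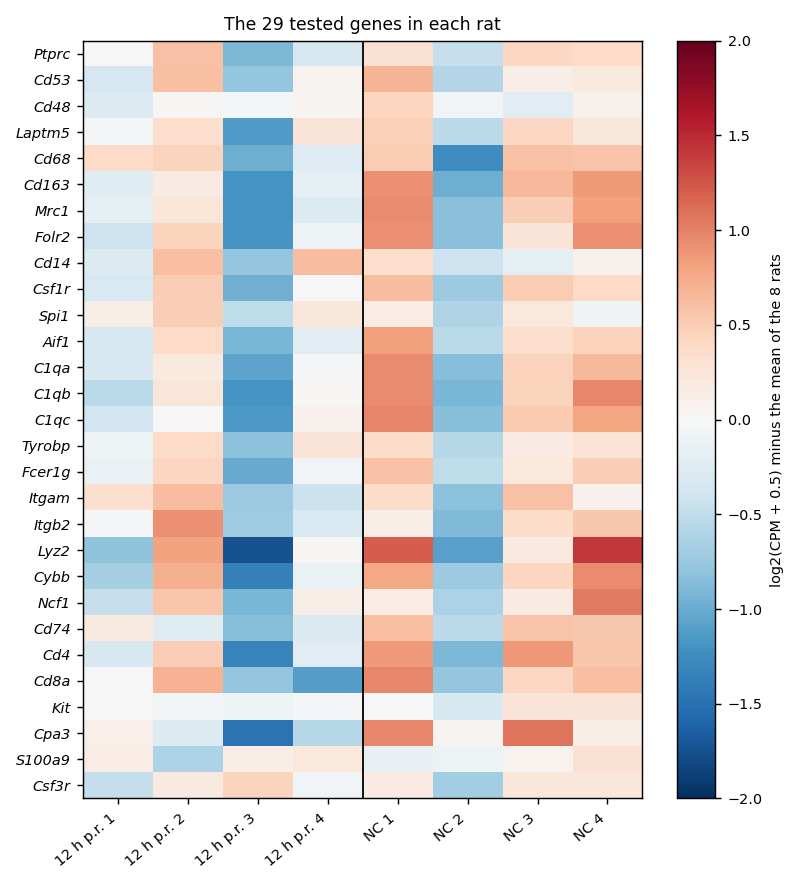
Level of the 29 tested genes (rows) in each rat (columns), as log2(CPM + 0.5) minus the mean of the 8 rats, with blue below and red above that mean. 12 h p.r. replicate 3 and NC replicate 2 are blue in nearly every macrophage row, while *Cd48* and *Kit* stay pale across all rats.

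NC replicate 2 weighed on the counts more than any other rat. Without it, 10 of the 29 genes were lower at an unadjusted p under 0.05 (4.24% of all genes in that fit): *Cd163*, *Mrc1*, *Folr2*, *Aif1*, *C1qa*, *C1qb*, *C1qc*, *Cd74*, *Cd4* and *Cpa3*. Also without it, 10 genes were lower with no overlap between the groups (4.94% of all genes), and 0 passed the adjustment, with a smallest adjusted p of 0.429 by edgeR. Without 12 h p.r. replicate 2, 5 genes were lower at that p (4.43% of all genes), and without 12 h p.r. replicate 1 there were 2 (3.75%). Leaving out 12 h p.r. replicate 3 left 1 gene, *Cpa3*, lower at an unadjusted p under 0.05 (5.32% of all genes), and the median log2 fold change was then -0.19, against -0.60 without NC replicate 2 and -0.62 without 12 h p.r. replicate 2. DESeq2, with all rats, put 6 genes lower at an unadjusted p under 0.05 (3.09% of all genes): *Cd163*, *Mrc1*, *C1qb*, *C1qc*, *Cd74* and *Cpa3*.

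RNA of other cell types also differed between the rats. The summed CPM of 10 skeletal muscle markers was 3134, 2646, 59490 and 3290 at 12 h p.r. and 3687, 9669, 11330 and 2438 in NC, so that the running rat with least macrophage RNA had by far the most muscle RNA. In NC, replicate 3 had more muscle RNA than replicate 2 and also more macrophage RNA. Whether muscle RNA bears on the macrophage values was not tested. With a muscle marker score as a covariate, an alternative added after the data were seen, 11 genes were lower at an unadjusted p under 0.05 (4.96% of all genes) and 0 after adjustment. The summed CPM of the erythroid markers was 516, 2173, 1030 and 656 at 12 h p.r. and 2669, 742, 750 and 2921 in NC, and the 3 rats with the highest values were also the 3 with the highest macrophage sums. The part of blood in the macrophage values was not tested, and the neutrophil genes, which also come with blood, gave 2.72, 2.64, 3.45 and 3.29 CPM in sum at 12 h p.r. and 3.85, 2.82, 3.25 and 3.91 CPM in NC. Osteoclasts share a lineage with macrophages, and their markers summed to 707 CPM in 12 h p.r. replicate 1 and 916 CPM in NC replicate 3, against 149 to 316 CPM in the other 6 rats. Markers of cartilage and bone were highest in the same 2 rats, at 863 and 1899 CPM, against 93.9 to 397 CPM in the other 6. Of the 8 osteoclast markers, 3 had enough reads for the test. *Dcstamp*, which osteoclast precursors need to fuse, had 0 reads in every rat. The part of osteoclast RNA in the macrophage values was not tested. Markers of the tendon cells themselves summed to between 22140 and 57140 CPM, lowest in 12 h p.r. replicate 3, and tenomodulin (*Tnmd*), a defining one, had 224 to 392 CPM.

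**Figure D4:**
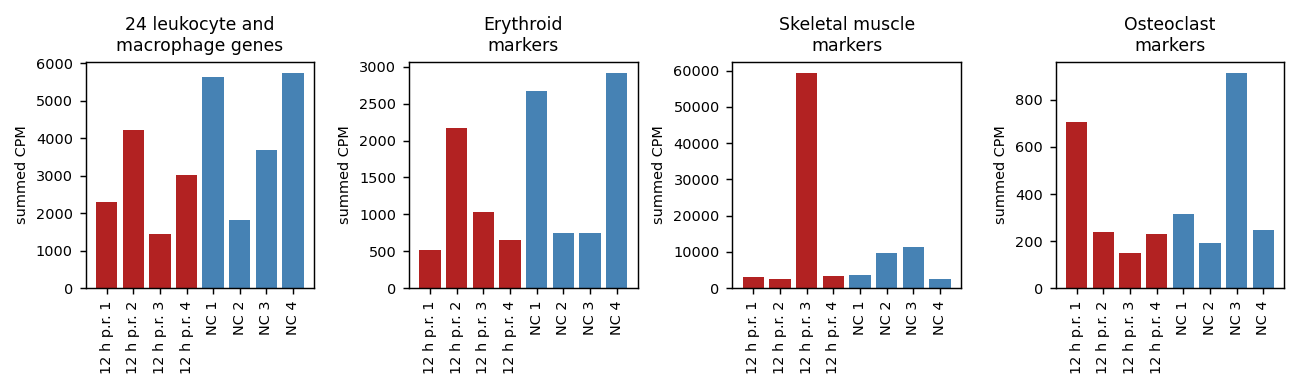
Summed CPM per rat (bars from 0, 12 h p.r. rats red, NC rats blue) of the 24 pan-leukocyte and macrophage genes and of erythroid, skeletal muscle and osteoclast markers, each on its own axis. The erythroid panel has its 3 tallest bars in the same rats as the leukocyte panel, and muscle RNA peaks at 59490 CPM in 12 h p.r. replicate 3.

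Among the pan-leukocyte genes, *Cd48* had the most reads and the flattest profile. It had 288, 355, 337 and 363 CPM at 12 h p.r. and 467, 334, 297 and 372 CPM in NC. Its lowest rats were 12 h p.r. replicate 1 and NC replicate 3, unlike those of the macrophage genes. Which cells its reads came from was not tested. The highest rat was 1.62 times the lowest, the groups overlapped, and the log2 fold change was -0.13 ± 0.16 (SE; edgeR adjusted p = 0.824). *Ptprc*, which encodes the leukocyte common antigen CD45, followed the macrophage genes instead, with 36.4, 54.7, 19.2 and 29.1 CPM at 12 h p.r. and 45.0, 26.1, 48.5 and 47.4 CPM in NC. Its log2 fold change was -0.27 ± 0.31, and those of the tetraspanin gene *Cd53* and the lysosomal gene *Laptm5* were -0.20 ± 0.33 and -0.25 ± 0.32. The summed level of the 4 genes at 12 h p.r. was 0.894 times that of NC, and *Cd48* made up most of it (335.9 of 471.5 CPM at 12 h p.r. and 367.4 of 527.2 CPM in NC).

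Receptors of resident macrophages were among the genes with the largest mean differences. *Cd163*, the scavenger receptor for haemoglobin bound to haptoglobin, had 33.4, 44.1, 17.0 and 34.8 CPM at 12 h p.r. and 75.0, 19.9, 62.4 and 71.8 CPM in NC. All the running rats lay below NC replicates 1, 3 and 4, and 3 of them lay above NC replicate 2. The log2 fold change was -0.83 ± 0.41 (edgeR p = 0.0712, adjusted p = 0.559; exact permutation p = 0.257), and without NC replicate 2 it was -1.11 (edgeR p = 0.00341, adjusted p = 0.429). Over the 19 fits made, this one and its alternatives, the adjusted p of *Cd163* ran from 0.375 to 0.848. *Mrc1*, the mannose receptor, had the same order of groups, with 85.2, 115, 42.0 and 79.9 CPM at 12 h p.r. against 188, 54.1, 137 and 171 CPM in NC, and a log2 fold change of -0.77 ± 0.40 (adjusted p = 0.576). *Folr2*, the folate receptor of resident macrophages, had a log2 fold change of -0.68 ± 0.42 (adjusted p = 0.648).

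*Cd14*, the co-receptor for lipopolysaccharide, was, of the 6 macrophage surface genes, the one with the highest level per length over all rats (52.5 FPKM) and did not share that lean. It had 70.02, 129, 49.6 and 131 CPM at 12 h p.r. and 109, 63.9, 75.2 and 90.1 CPM in NC. Running replicates 2 and 4 were above every NC rat and the other two were not, and the log2 fold change was 0.17 ± 0.31 (adjusted p = 0.895), which turned to -0.02 or -0.03 without either of those 2 rats. *Cd68*, of the lysosomal membrane of phagocytes, had a log2 fold change of -0.29 ± 0.43 (adjusted p = 0.863), with NC replicate 2 at 7.85 CPM and the other NC rats at 27.5 to 29.2 CPM.

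The genes of lineage control did not move alike. *Csf1r*, the receptor for Csf1 and Il34 on which macrophages depend, had 98.1, 171, 62.4 and 121 CPM at 12 h p.r. and 186, 73.6, 173 and 161 CPM in NC. The groups overlapped, and the log2 fold change was -0.39 ± 0.35 (adjusted p = 0.751). *Spi1* had 21.2, 27.7, 13.6 and 22.9 CPM at 12 h p.r. and 21.6, 12.6, 22.7 and 18.5 CPM in NC, which is nearly the same range, and a log2 fold change of 0.17 ± 0.24 (adjusted p = 0.847). *Aif1*, the actin-binding Iba1 of macrophages, had a log2 fold change of -0.56 ± 0.32 (adjusted p = 0.623).

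The 3 chains of C1q, the recognition part of the classical complement pathway and in tissues a macrophage product, kept close ratios to each other in every rat. *C1qa* had 111, 159, 65.9 and 135 CPM at 12 h p.r. and 266, 76.3, 191 and 216 CPM in NC, and every running rat lay below NC replicates 1, 3 and 4. Its log2 fold change was -0.67 ± 0.38 (adjusted p = 0.608), and *C1qb* and *C1qc* had -0.80 ± 0.42 and -0.80 ± 0.39 (adjusted p = 0.582 and 0.553). 12 h p.r. replicate 3 and NC replicate 2 were the lowest rats of their groups for *C1qa* and *C1qb* alike. Per length, *C1qa* was 1.19 ± 0.105 times *C1qc* at 12 h p.r. and 1.09 ± 0.0479 times in NC (FPKM, n = 4 each), and *C1qb* was 0.724 ± 0.0914 and 0.723 ± 0.0597 times *C1qc*. The summed level of the chains at 12 h p.r. was 0.595 times that of NC, 0.494 times without NC replicate 2 and 0.685 times without 12 h p.r. replicate 3.

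*Tyrobp* and *Fcer1g* encode the adaptors that carry the signals of activating and Fc receptors in myeloid cells. *Tyrobp* had 53.7, 75.2, 32.3 and 68.6 CPM at 12 h p.r. and 74.4, 38.5, 64.5 and 70.4 CPM in NC, with groups that overlapped and a log2 fold change of -0.11 ± 0.28 (adjusted p = 0.924). *Fcer1g* had -0.36 ± 0.31 (adjusted p = 0.744), and the ratio of *Tyrobp* to *Fcer1g* per length was 1.23 ± 0.133 at 12 h p.r. and 1.03 ± 0.0661 in NC. The integrin chains gave no lean to either side. *Itgb2*, the shared beta chain of leukocyte integrins, had 25.5, 49.4, 15.8 and 21.0 CPM at 12 h p.r. and 28.2, 13.9, 34.0 and 38.3 CPM in NC. Its log2 fold change was -0.04 ± 0.39 (adjusted p = 0.983), and that of *Itgam*, the alpha chain of Mac-1, was -0.11 ± 0.37 (adjusted p = 0.946), and both turned positive when 12 h p.r. replicate 3 was left out (0.15 and 0.08).

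Lysozyme had the widest range of the 23 tested pan-leukocyte and macrophage genes. *Lyz2* had 656, 2005, 344 and 1166 CPM at 12 h p.r. and 2682, 540, 1325 and 3075 CPM in NC, so that the highest of the 8 rats had 8.95 times the level of the lowest. The log2 fold change was -0.87 ± 0.62 (edgeR p = 0.196, adjusted p = 0.690, exact permutation p = 0.286), a large mean difference beside a large spread. The rats with most *Lyz2*, 12 h p.r. replicate 2 and NC replicates 1 and 4, were those with most erythroid RNA. *Cybb*, the catalytic subunit of the phagocyte oxidase, had -0.65 ± 0.46 (adjusted p = 0.686) and its cytosolic partner *Ncf1* had -0.39 ± 0.40 (adjusted p = 0.785). *Cd74* had 360, 266, 176 and 259 CPM at 12 h p.r. and 482, 221, 469 and 461 CPM in NC. NC replicates 1, 3 and 4 were above every running rat, and the log2 fold change was -0.62 ± 0.28 (edgeR p = 0.0556, adjusted p = 0.531, exact permutation p = 0.114).

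Mast cell genes gave the 1 nominal difference. *Cpa3*, the carboxypeptidase of mast cell granules, had 24.5, 18.7, 7.85 and 15.2 CPM at 12 h p.r. and 45.0, 23.8, 48.6 and 24.9 CPM in NC. The groups overlapped by 1 rat only, since 12 h p.r. replicate 1 lay between the lowest 2 NC rats. The log2 fold change was -1.11 ± 0.36 (p = 0.0124, edgeR adjusted p = 0.433, DESeq2 adjusted p = 0.118), and the exact 2-sided permutation test of log2(CPM + 0.5) gave p = 0.0571, where 0.0286 is the smallest p that 4 against 4 rats allow. Over the 19 fits its log2 fold change ran from -1.36 to -0.88 and its adjusted p from 0.118 to 0.773. *Kit*, the stem cell factor receptor of mast cells, had 21.1, 20.3, 19.8 and 20.6 CPM at 12 h p.r. and 21.3, 16.8, 25.5 and 25.4 CPM in NC. The highest rat was 1.51 times the lowest, and the log2 fold change was -0.13 ± 0.14 (adjusted p = 0.804). Which cells carried the *Kit* reads was not tested.

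Lymphocyte genes other than *Cd4* were near the limit of detection. *Cd4*, which in the rat is also carried by macrophages, had 20.5, 36.4, 9.88 and 21.8 CPM at 12 h p.r. and 46.3, 13.5, 47.3 and 37.6 CPM in NC, with the same lowest rats as the macrophage genes. Its log2 fold change was -0.72 ± 0.44 (adjusted p = 0.643). *Cd3e*, a chain of the T cell receptor complex, had between 0 and 7 reads per rat, and *Cd8a* had 81 reads in all and a log2 fold change of -0.97 ± 0.76 (adjusted p = 0.716). Of the neutrophil genes, *S100a9*, a calcium-binding protein of neutrophils and monocytes, had 1.68, 0.79, 1.67 and 1.78 CPM at 12 h p.r. and 1.28, 1.35, 1.59 and 1.95 CPM in NC, with a log2 fold change of -0.05 ± 0.31 (adjusted p = 0.972). *Csf3r*, the receptor for granulocyte colony-stimulating factor, had 0.02 ± 0.40 (adjusted p = 0.993). At these depths 1 read was 0.0755 to 0.132 CPM, so that the values of these genes rest on few reads and a small difference was not detectable.

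Since the macrophage genes shared their rat-to-rat spread, each was also set against the mean log2 CPM of the 23 genes in the same rat, a description chosen after the values had been seen and given with no test. On this scale 13 of the genes were higher and 10 were lower in the 12 h p.r. mean. The differences balance by construction, so a gene that was lowered less than the average of the 23 counts as higher here. *Spi1* (0.56), *Cd14* (0.48), *Itgb2* (0.33) and *Itgam* (0.30) had the highest log2 differences, and *Lyz2* (-0.47), *Cd163* (-0.33), *C1qb* (-0.32), *C1qc* (-0.32), *Mrc1* (-0.31) and *Cybb* (-0.31) the lowest. Per length, *Spi1* was 0.659, 0.636, 0.854 and 0.759 times *Mrc1* at 12 h p.r. and 0.303, 0.618, 0.437 and 0.286 times in NC. The running rats all had the higher ratio, NC replicate 2 came close to them, and the pair was chosen for that difference. In 0 of the 23 genes did the relative levels of the groups separate entirely.

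**Figure D5:**
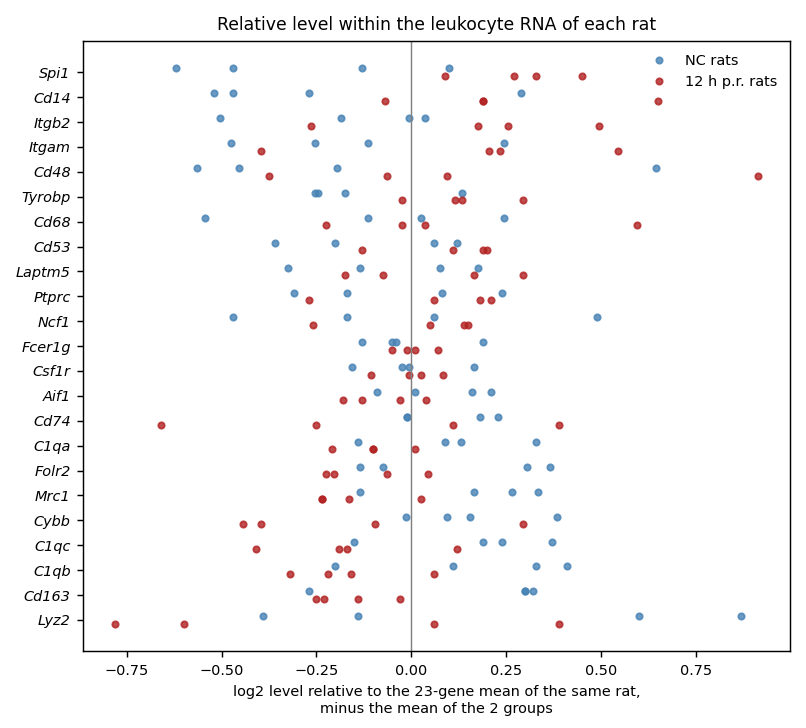
Level of each of the 23 tested pan-leukocyte and macrophage genes relative to the mean log2 CPM of the 23 in the same rat, shifted so that the 2 group means lie at equal distance from 0 (NC blue, 12 h p.r. red). Red points lie mostly to the right for *Spi1* and *Cd14* and mostly to the left for *Mrc1*, *Cd163* and the C1q chains, and the groups overlap in every gene.

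Other genes of the same cell types were read from lists of 145 symbols, of which 137 genes were in the table and 96 were tested. None passed the adjustment by edgeR. At an unadjusted p under 0.05, 2 were higher and 2 were lower, shares of the 96 that are below those of all genes. Of the fold changes, 36 were above 0 and 60 below, with a median of -0.11, where 7557 of all genes tested were above 0 and 6380 below. Of 24 further macrophage genes, 1 was higher at that p (5.44% of all genes) and 0 were lower (4.08% of all genes). This was *Csf2rb*, the common beta chain of the receptors for GM-CSF, interleukin-3 and interleukin-5, with 52.7, 54.0, 56.1 and 40.7 CPM at 12 h p.r. and 28.6, 33.9, 40.3 and 26.3 CPM in NC. Every running rat was above every NC rat, with 40.7 against 40.3 CPM at the closest pair, and the log2 fold change was 0.66 ± 0.16 (p = 0.00218, exact permutation p = 0.0286). Its adjusted p was 0.392 by edgeR and 0.0429 by DESeq2, and it ran from 0.0429 to 0.773 over the 19 fits, under 0.05 in 1 of them. Its level was not low in the rats that were low for the macrophage genes.

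Of the Csf1r ligands, *Csf1* had a log2 fold change of 0.15 ± 0.11 and *Il34* of 0.40 ± 0.12 (edgeR p = 0.00929, adjusted p = 0.433, exact permutation p = 0.0571), with *Il34* at 41.9, 43.3, 33.9 and 49.3 CPM at 12 h p.r. and 30.4, 30.2, 35.7 and 31.5 CPM in NC. For *Il34*, 1 running rat lay below the highest NC rat. Of 9 further mast cell genes tested, 2 were lower at an unadjusted p under 0.05 (4.08% of all genes). Of the 9 fold changes, 6 were below 0 and 3 above, and the summed level of the list at 12 h p.r. was 0.884 times that of NC. *Fcer1a*, the IgE-binding chain of the high-affinity receptor, had a log2 fold change of -1.23 ± 0.54 (edgeR p = 0.0477, adjusted p = 0.521, exact permutation p = 0.0571), and *Hpgds*, a prostaglandin D synthase, had -0.59 ± 0.26 (edgeR p = 0.0448, adjusted p = 0.511, exact permutation p = 0.0571). The tryptase gene *Tpsab1* and the chymase gene *Cma1*, which encode other granule proteases, had 0.32 ± 0.25 and -0.29 ± 0.26. In the lists of Fc receptor signalling (18 tested), oxidase partners (3), class II antigen presentation (9), other complement (9), leukocyte cytoskeleton (12), T cells (3), B cells (2), cytotoxic cells (2) and neutrophils (4), 0 genes had an unadjusted p under 0.05 in either direction.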

How the data were processed

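RNA of 8 right Achilles tendons was sequenced, 4 at 12 h p.r. and 4 NC, with groups taken from the sample labels. The authors aligned reads to Rnor_6.0 (HISAT2 2.1.0, strand-specific setting) and deposited whole read counts per gene from featureCounts 1.6.3. Whether the counting used the strand is not given in the sources used here. The authors also deposited FPKM values; these equal counts divided by gene length and DESeq2 size factors (largest difference 8.92e-11%), not by total counts (up to 9.95%). A table of the authors' own comparison (fold changes and p-values, DESeq2 1.30.1) was not used.

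Genes were kept with filterByExpr of edgeR 4.0.16 (13937 genes), scaled by TMM and compared with the quasi-likelihood test, with Benjamini-Hochberg adjustment. Single genes were also given an exact permutation test of log2(CPM + 0.5). Scripts were tested on simulated data. Alternatives were DESeq2 1.42.0, limma 3.58.1 on log2(FPKM + 1) and log2(FPKM + 0.1), other factors and filters, a replicate block, a muscle score added after the data were seen, and each rat left out (19 fits in all, with the main one). The scripts ran in R 4.3.3 and Python 3.11.15.

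The members and lists were chosen with earlier results of these data known. Values in every rat are given by rule for genes with an unadjusted p under 0.05, or without overlap, and for the gene of highest level in its class. *Ptprc*, *Cd163*, *Mrc1*, *Spi1*, *Cd74*, *Kit*, *Tpsab1*, *Cma1* and *Csf1* were added after their values were seen. Coordinates of genes are not given, since the promoter windows are of GRCr8 and the counts of Rnor_6.0.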

Additional observations from a re-analysis of the deposited data

Results flagged for a closer look

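In 7 of 60 groups of 4 rats, 1 rat stood apart from the other 3 by Dixon's test, where chance gives about 3.0 if the groups are independent. They were not independent, since the genes shared their spread between rats, so the 7 cannot be weighed against that number. NC replicate 2 was the low rat in 6 of the 7. It had 26.1 CPM of *Ptprc* (the other NC rats 45.0 to 48.5), 7.85 CPM of *Cd68* (27.5 to 29.2), 19.9 CPM of *Cd163* (62.4 to 74.9), 73.6 CPM of *Csf1r* (161 to 186), 221 CPM of *Cd74* (461 to 482) and 0.491 CPM of *Csf3r* (1.28 to 1.36). The other was *S100a9* in 12 h p.r. replicate 2, at 0.79 CPM where the other running rats had 1.67 to 1.78 CPM.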

How the results depend on the processing

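No leukocyte gene of the 35 passed the adjustment in any of the 19 fits. The count lower at an unadjusted p under 0.05 was 1 with all rats, 6 with DESeq2, 4 with no filter beyond 1 count, 11 with the muscle score and 1 to 10 with a rat left out. The count lower without overlap was 0 with all rats, 1 without the 2 rats with most cartilage RNA and 0 to 10 with a rat left out. Of the other leukocyte genes, 2 were lower at that p, against 5 with DESeq2, 1 with upper-quartile factors, 6 with no filter, 4 with limma at either pseudocount, 8 with the muscle score, 4 without the cartilage-rich pair and 0 to 10 with a rat left out, while 2 were higher, against 4 without that pair and 2 to 6 with a rat left out. The causes were not tested. The median log2 fold change stayed between -0.62 and -0.19, and the ratio of summed levels between 0.535 and 0.753.

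The log2 fold change kept its sign in 21 of 29 genes and turned in 8, where it lay near 0. With a rat left out it ran from -0.49 to 0.02 for *Cd53*, -0.22 to 0.01 for *Cd48*, -0.03 to 0.38 for *Cd14*, -0.28 to 0.09 for *Tyrobp*, -0.37 to 0.08 for *Itgam*, -0.47 to 0.15 for *Itgb2*, -0.16 to 0.14 for *S100a9* and -0.20 to 0.21 for *Csf3r*, and *Itgb2* was at 0.09 without the cartilage-rich pair. The replicate numbers did not pair the rats (correlations of same-numbered rats 0.0699, -0.193, 0.116 and 0.0818), and with the replicate block 1 gene was lower at an unadjusted p under 0.05, as without it, and the median was -0.40. At this depth 6 of the 35 genes had too few reads for the test.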

Other observations

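Some other leukocyte genes had a wide range between rats, or appeared without the genes that usually accompany them (all picked after their values were seen, with no test). *Vsig4*, a complement receptor of resident macrophages, had 0.518, 24.2, 0.119 and 5.35 CPM at 12 h p.r. and 53.5, 1.35, 11.9 and 98.7 CPM in NC, the widest range among the macrophage genes listed. *RT1-Ba*, a class II chain, had 98.9 CPM in 12 h p.r. replicate 1 and 10.5 to 34.2 CPM in the other 7 rats, while *Cd74* was 360 CPM in that rat and 176 to 482 CPM in the others.

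*Foxp3*, the transcription factor of regulatory T cells, had 10.1 to 16.8 CPM in the 8 rats, although *Cd3e* and *Cd3d* had 25 and 12 reads in all. *Mpo*, a granule enzyme of neutrophils, had 4.08 to 12.7 CPM, while *Elane*, *Prtn3* and *Ctsg*, which accompany it in neutrophil precursors, had at most 0.17 CPM in any rat. Whether the counting used the strand is not given, so reads of overlapping genes on the other strand may be included. Which cells carried the *Foxp3* and *Mpo* reads was not tested.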
